A study of Sus scrofa with 14 samples.

Results

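Transcript levels and chromatin state were examined for 10 genes that mark adipose progenitor cells and fibroblasts, out of 21280 protein-coding genes in the expression tables. The genes were listed by symbol as known markers of these cells, with no threshold on their values, and are PDGFRA, PDGFRB, DPP4, PI16, CD34, THY1, DCN, CD55, ICAM1 and DLK1. An Ensembl identifier was matched to 8 of them, whereas THY1 and CD55 had no matched identifier and were followed at their loci in the Hi-C values only. The tissues were the greater omentum (GOM), a visceral depot, and the upper layer of backfat (ULB), a subcutaneous depot, of healthy female wild boars and Bama pigs, all 2 years old, housed on 1 farm and fed alike. Wild boar stands for a lean type (wild-born animals kept in captivity) and Bama pig, an indigenous breed sampled from a non-inbred line, for a fat type. Each assay covered both depots of 2 wild boars (4 libraries) and the GOM of 2 Bama pigs (2 libraries), while Bama pig ULB was covered by 1 library and has no replicate. The expression and PC1 values of a further Bama pig ULB library were not analysed here, but the TAD list of that tissue was called by the authors on its merged replicates. Both depots came from the same 4 pigs, the labels do not say which libraries share a pig, and the tests between depots treated the libraries as separate. RNA came from whole tissue, in which fewer cells of a type and less RNA per cell cannot be told apart. Nuclei for Hi-C were isolated from the adipocyte-bearing top layer left by centrifuging cross-linked tissue, so the PC1 values below do not describe progenitor cells as such.

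White adipose tissue holds, beside its adipocytes, a stroma of fibroblast-like cells from which new adipocytes form. PDGFRA and PDGFRB are receptors for platelet-derived growth factors, and PDGFRA marks most adipose fibroblasts and progenitors while PDGFRB is also strong on mural cells of vessels. DPP4, a membrane peptidase, PI16, a secreted or anchored peptidase inhibitor, and CD55, which protects cells from complement, mark early progenitors of the interstitium. ICAM1, a ligand of leukocyte integrins, and DLK1, also called preadipocyte factor, are used as markers of preadipocytes further along. CD34 and THY1 are surface glycoproteins of many stromal cells, CD34 also of endothelium, and DCN (decorin) is a proteoglycan that binds collagen fibrils.

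The sequences just upstream of 4 members are shown because PI16 and CD55 were the members that passed a test between the depots and because the related receptors PDGFRA and PDGFRB had opposite estimates. Each is the 250 bases before the RefSeq start of the gene in Sscrofa11.1, written 5′ to 3′ along the gene's strand, and capitals mark a match, on either strand, to the TATA box (TATAAA), to the CCAAT box, to the GC box of Sp factors (GGGCGG) or to the site of AP-1 (TGACTCA). The PI16 stretch is chr7:32600702-32600951 on the plus strand, the CD55 stretch chr9:67932819-67933068 on the plus strand, the PDGFRA stretch chr8:40966318-40966567 on the plus strand and the PDGFRB stretch chr2:151192819-151193068 on the minus strand.
PI16: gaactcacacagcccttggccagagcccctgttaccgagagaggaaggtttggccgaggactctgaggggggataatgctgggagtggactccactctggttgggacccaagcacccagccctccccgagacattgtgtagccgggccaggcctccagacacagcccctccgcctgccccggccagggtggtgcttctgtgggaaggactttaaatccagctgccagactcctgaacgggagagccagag
CD55: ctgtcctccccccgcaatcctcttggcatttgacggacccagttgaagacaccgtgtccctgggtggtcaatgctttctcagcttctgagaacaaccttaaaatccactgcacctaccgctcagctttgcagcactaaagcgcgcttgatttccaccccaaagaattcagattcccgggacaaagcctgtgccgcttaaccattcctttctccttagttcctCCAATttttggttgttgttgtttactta
PDGFRA: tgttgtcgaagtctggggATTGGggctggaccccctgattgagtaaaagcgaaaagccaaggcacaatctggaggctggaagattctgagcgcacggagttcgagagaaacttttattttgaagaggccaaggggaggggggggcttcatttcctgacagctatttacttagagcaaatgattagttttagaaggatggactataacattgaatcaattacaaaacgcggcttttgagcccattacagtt
PDGFRB: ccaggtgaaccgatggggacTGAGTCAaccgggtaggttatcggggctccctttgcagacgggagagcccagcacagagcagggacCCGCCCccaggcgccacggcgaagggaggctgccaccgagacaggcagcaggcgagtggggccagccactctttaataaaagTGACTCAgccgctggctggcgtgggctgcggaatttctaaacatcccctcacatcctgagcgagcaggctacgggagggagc
PDGFRB held 2 matches to TGACTCA (as TGAGTCA at position -230 and as TGACTCA at -82 from the start), a motif present in 2.88% of 18688 protein-coding promoters of this length, and 1 match to GGGCGG, present in 46.1%. PDGFRA and CD55 each held 1 match to CCAAT, present in 31.7% of promoters, and PI16 held none of the 4 motifs. The TATA box letters were in none of these 4 stretches and in 9.65% of all promoters. Of the other 6 members, ICAM1 held a GC box at -74 and TATA box letters at -45, DLK1 held 6 GC boxes in a stretch of 82.4% GC with 44 CpG sites, and DPP4, CD34, THY1 and DCN held none of the motifs. The GC content was 62.8% upstream of PI16, 64.0% upstream of PDGFRB, 49.2% upstream of CD55 and 45.6% upstream of PDGFRA, against a median of 58.0% over all promoters. A match is a description of the letters only, and the RefSeq start may not be the start used in these tissues.

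Total estimated counts ranged from 10833153 to 18627076 per library. Of the 10 members, 7 passed the filter of a TPM above 0.1 in both replicates of a group, and DLK1 did not. Markers of other cell types were measured in the same libraries. All 4 GOM libraries held RNA of mesothelial markers, with a summed TPM of 172 to 570 over 6 matched genes against 3.48 to 20.8 in the ULB, and WT1 was at 0 to 0.253 TPM in the ULB. Macrophage markers summed to 961 to 2238 TPM in the GOM and 578 to 787 in the ULB, and lymphocyte markers to 50.6 to 73.5 and 24.8 to 32.2. Adipocyte markers summed to 4177 to 8519 TPM in the GOM and 5063 to 7117 in the ULB. None of 7 tested was called by edgeR, and 3 had estimates higher in the GOM. LEP came nearest to a call, at 52.1 to 143 TPM in the GOM and 147 to 254 TPM in the ULB (log2 fold change -1.37, SE 0.33, edgeR adjusted p = 0.0529). Liver transcripts summed to 294 to 1485 TPM in Bama pig and 172 to 218 in wild boar, and 5 of 8 were lower in wild boar by edgeR. Most of the wild boar sum was APOA1, which overlapped between breeds (163 to 206 TPM in wild boar, 146 to 227 in Bama pig). ALB was at 1.95 to 6.60 TPM in wild boar and 77.7 to 873 TPM in Bama pig, highest in GOM replicate 2. Wild boar ULB replicate 1 held skeletal muscle RNA, with ACTA1 at 114 TPM against at most 3.55 in the other libraries. The part of these markers in the results that follow was not tested.

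Ordered by mean TPM over 7 libraries, a scale per length, the members ran from DCN, at percentile 99.8 of all genes in the table, through PDGFRA (94.4), PI16 (91.1), CD34 (85.6), PDGFRB (81.9) and ICAM1 (75.2) to DPP4 (54.2). The ranges of CD34 and PDGFRB overlapped over the libraries, as did those of PI16 and CD34, of PDGFRB and ICAM1 and of PDGFRA and PI16. Within libraries, CD34 lay above PDGFRB in all except the Bama pig ULB library. PDGFRA lay above PI16, and PDGFRB above ICAM1, in all except wild boar GOM replicate 2. The order was not tested. CD34 lay above PI16 in all ULB libraries and in Bama pig GOM replicate 2, and PDGFRB lay above PI16 in all ULB libraries. DCN lay above every other member in each library, and DPP4 below every other member except DLK1.

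The comparison of GOM with ULB asks how the levels of these stromal markers differ between whole tissue of a visceral and a subcutaneous depot. PI16 was the only member called, and its transcript level was 97.5 and 178 TPM in the wild boar GOM libraries and 85.9 and 34.1 TPM in those of Bama pig. In the ULB it was 22.9 and 27.6 TPM in wild boar and 18.3 TPM in Bama pig. Every GOM library thus lay above every ULB library, with the Bama pig GOM replicate 2 nearest to the ULB. The mean was 98.9 ± 59.6 TPM (SD, n = 4) in the GOM and 22.9 ± 4.65 TPM (SD, n = 3) in the ULB, a mean 4.31-fold higher. The log2 fold change fitted over 7 libraries with breed as a covariate was 2.09 (SE 0.45, edgeR quasi-likelihood F test, Benjamini-Hochberg adjusted p = 0.0344). Across all 16949 genes tested 3.65% were called, and among 7 members tested 1 was called and 3 had an unadjusted p below 0.05, as had 19.6% of all genes.

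The PI16 call depended on single libraries although its direction did not. The adjusted p by edgeR was 0.0547 without wild boar GOM replicate 1, 0.0581 without wild boar GOM replicate 2, 0.156 without wild boar ULB replicate 1, 0.136 without wild boar ULB replicate 2 and 0.0752 when Bama pig GOM replicate 1 was left out. Leaving out Bama pig GOM replicate 2 gave 0.0106, and leaving out the Bama pig ULB library gave 0.0476, where the log2 fold change was largest at 2.70. The lowest log2 fold change was 1.64, without wild boar GOM replicate 2. With the 4 wild boar libraries alone it was 2.68 (SE 0.40, edgeR adjusted p = 0.0301).

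**Figure D1:**
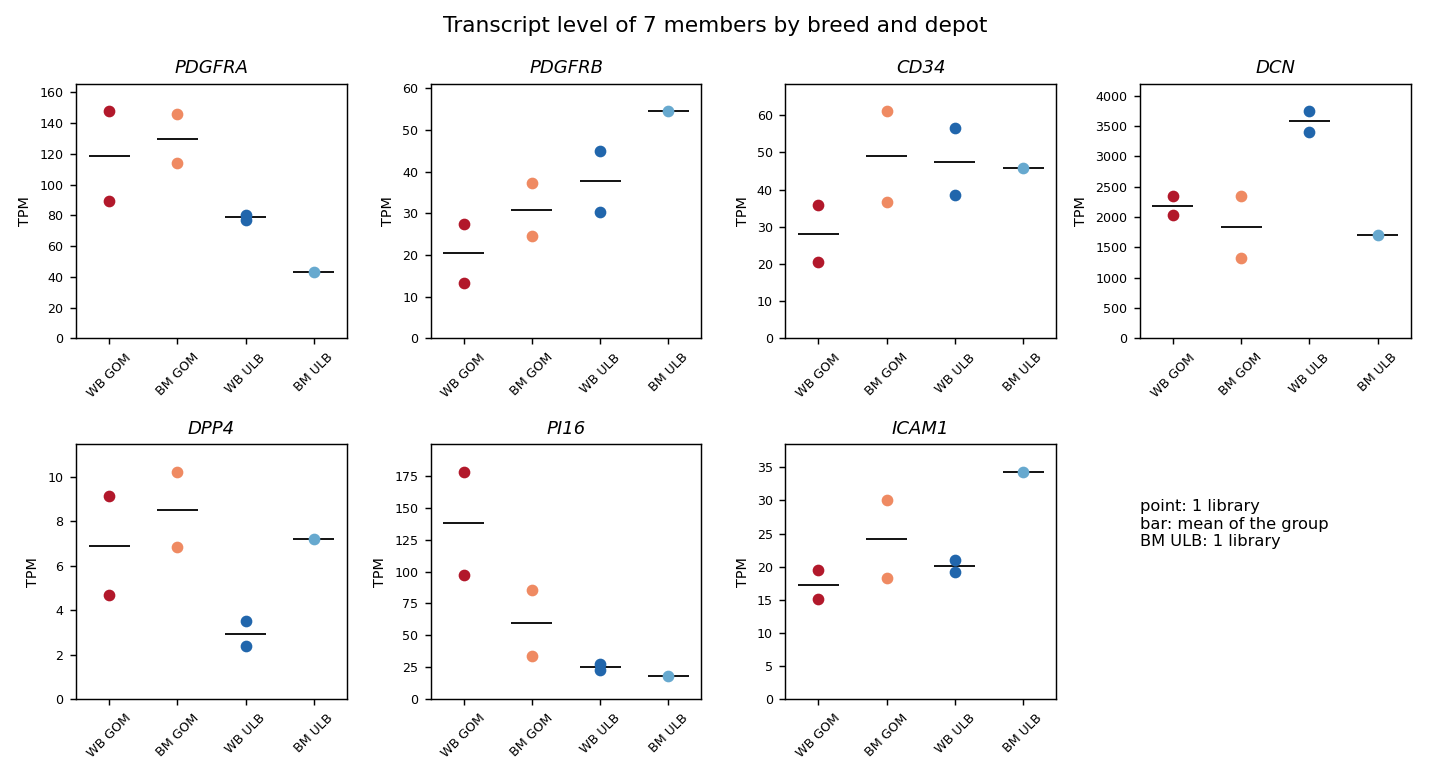
Transcript level (TPM, linear axes from 0) of the 7 members that passed the filter, by breed and depot, with 1 point per library and a bar at the group mean (n = 2, Bama pig ULB n = 1). PI16 and PDGFRA lie higher in every GOM than in every ULB library, from 34.1 TPM upward against at most 27.6 for PI16 and from 89.3 TPM upward against at most 80.5 for PDGFRA.

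The receptors PDGFRA and PDGFRB had estimates of opposite sign, and neither passed the threshold with edgeR. PDGFRA was at 148 and 89.3 TPM in GOM of wild boar and 114 and 146 TPM in that of Bama pig, and at 80.5 and 77.2 TPM in wild boar ULB and 43.1 TPM in Bama pig ULB. The GOM and ULB libraries did not overlap, but wild boar GOM replicate 2 lay close to the wild boar ULB. The mean was 124 ± 28.0 TPM (SD, n = 4) in the GOM and 66.97 ± 20.7 TPM (SD, n = 3) in the ULB, and the log2 fold change was 0.92 (SE 0.28, edgeR adjusted p = 0.106). PDGFRB was at 27.5 and 13.4 TPM in wild boar GOM, 37.3 and 24.5 TPM in Bama pig GOM, 44.9 and 30.4 TPM in wild boar ULB and 54.5 TPM in Bama pig ULB. These groups overlapped, with Bama pig GOM replicate 1 above wild boar ULB replicate 2. Its log2 fold change was -0.95 (SE 0.31, edgeR adjusted p = 0.127). With DESeq2, PDGFRA (adjusted p = 0.028) and PDGFRB (adjusted p = 0.0425) were called beside PI16, so that 3 of 7 members passed there, as did 8.68% of all genes. Among the 7 members tested, 2 (PI16 and PDGFRA) had GOM and ULB libraries that did not overlap in TPM, against 11.5% of all genes tested.

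Since TPM is scaled per length, the receptors can also be set against each other within a library, a ratio chosen after the values were seen and given as a description. PDGFRA exceeded PDGFRB 5.38-fold and 6.67-fold in GOM of wild boar and 3.06-fold and 5.97-fold in that of Bama pig. In the ULB the ratio was 1.79 and 2.54 in wild boar and 0.791 in Bama pig, the only library with more PDGFRB than PDGFRA. Mural cells also express PDGFRB, and the 10 mural markers summed to 458 to 1357 TPM in the GOM and 444 to 823 in the ULB, with none of 10 called by edgeR.

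The ligands of these receptors were tested as a list, and none of 4 passed in either comparison. All 4 estimates were lower in the GOM, with a median log2 fold change of -0.60 against 0.05 over all genes tested. PDGFD, which signals mainly through PDGFRB, ranged from 18.4 to 34.3 TPM in the GOM and 32.6 to 93.2 TPM in the ULB (log2 fold change -1.19, SE 0.29, edgeR adjusted p = 0.0533). PDGFA, a ligand of PDGFRA, ranged from 11.6 to 22.9 TPM in the GOM and 23.5 to 29.8 TPM in the ULB (adjusted p = 0.146 by edgeR). The libraries of the depots thus did not overlap for PDGFA and overlapped for PDGFD.

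The general stromal genes CD34 and DCN were not called. DCN was the most abundant member, with 2026 and 2350 TPM in wild boar GOM, 2340 and 1320 TPM in Bama pig GOM, 3750 and 3407 TPM in wild boar ULB and 1707 TPM in Bama pig ULB. The wild boar ULB libraries were the highest, and the Bama pig ULB library lay within the range of the GOM. The log2 fold change of DCN was -0.44 (SE 0.33, edgeR adjusted p = 0.484). CD34 ranged from 20.5 to 61.1 TPM in the GOM and 38.5 to 56.5 TPM in the ULB, with the highest and the lowest library both in the GOM. With TPM rescaled to a common sum, CD34 was instead highest in wild boar ULB replicate 1 (66.2, against 63.9 in Bama pig GOM replicate 1). Its log2 fold change was -0.50 (SE 0.28, edgeR adjusted p = 0.354), and the 9 matched endothelial markers, of cells that also carry CD34, summed to 592 to 892 TPM in the GOM and 595 to 842 in the ULB.

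Early progenitor markers were then set against those of committed preadipocytes. DPP4, the other early marker, was at 9.13 and 4.67 TPM in wild boar GOM, 10.2 and 6.82 TPM in Bama pig GOM, 3.52 and 2.38 TPM in wild boar ULB and 7.18 TPM in Bama pig ULB. In wild boar the GOM lay above the ULB, while the Bama pig ULB library lay between the Bama pig GOM libraries, and the log2 fold change was 0.70 (SE 0.43, edgeR adjusted p = 0.402). ICAM1, the committed marker, was at 19.4 and 15.1 TPM in wild boar GOM, 30.1 and 18.2 TPM in Bama pig GOM, 19.1 and 21.0 TPM in wild boar ULB and 34.3 TPM in Bama pig ULB. Its groups overlapped (log2 fold change -0.41, SE 0.28, edgeR adjusted p = 0.447). DLK1 was listed at 0 in 6 libraries and at 0.0271 TPM, a count of 1, in Bama pig GOM replicate 2, and a count of 0 allows up to 3 counts in a library. DLK1 therefore could not be tested at this depth.

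Within each library PI16 exceeded ICAM1 5.02-fold and 11.8-fold in GOM of wild boar and 2.85-fold and 1.87-fold in that of Bama pig. In the ULB the ratio was 1.20 and 1.31 in wild boar and 0.533 in Bama pig. The ratio of DPP4 to ICAM1 was 0.309 to 0.470 in the GOM and 0.113 to 0.209 in the ULB. Both ratios were thus higher in every GOM than in every ULB library, although DPP4 and ICAM1 each overlapped between the depots. The share of all gene pairs with a ratio so separated was not taken. The early markers differed from each other as well, with a ratio of PI16 to DPP4 of 10.7 and 38.2 in GOM and 6.52 and 11.6 in ULB of wild boar, and of 8.40 and 5.01 in GOM and 2.55 in ULB of Bama pig. The early against committed contrast, the mean log2(TPM + 0.1) of DPP4 and PI16 minus that of ICAM1 and DLK1, was 4.11 ± 0.55 (SD, n = 4) in the GOM and 2.62 ± 0.10 (SD, n = 3) in the ULB. With DLK1 at or near 0 this contrast is set by the other 3 genes. Between breeds its means over all libraries differed by 0.20, but depot was not held constant and Bama pig has only 1 ULB library. Within the GOM the contrast was 4.42 and 4.56 in wild boar and 4.10 and 3.33 in Bama pig. Within the ULB it was 2.72 and 2.51 in wild boar and 2.64 in Bama pig. No test was made of these scores.

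**Figure D2:**
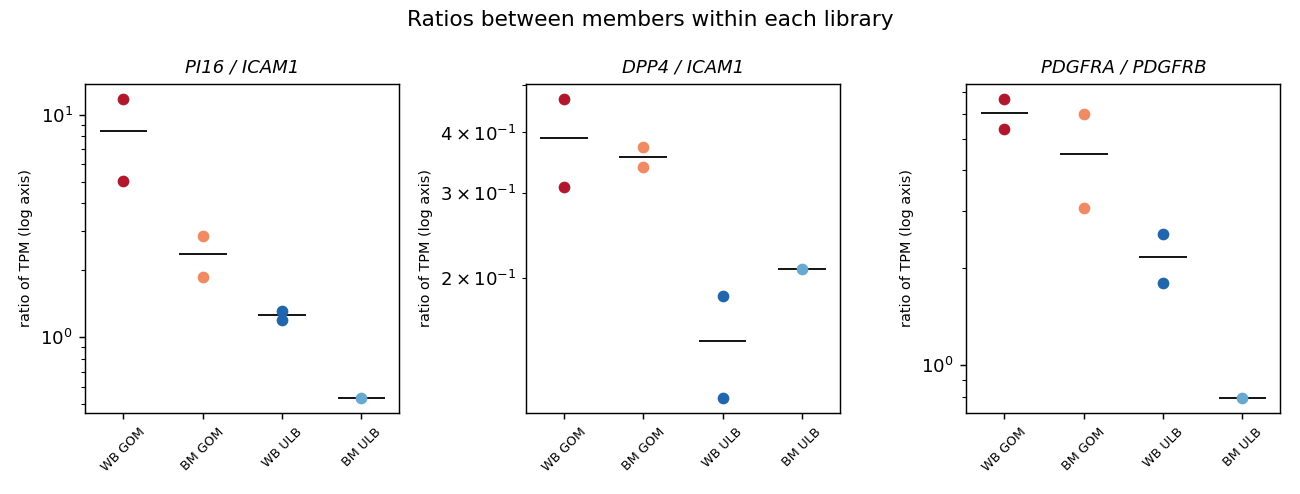
Ratio of the TPM of PI16 to ICAM1, DPP4 to ICAM1 and PDGFRA to PDGFRB in each library (log axes), with 1 point per library and a bar at the group mean. Each of the 3 ratios is higher in every GOM than in every ULB library, for PDGFRA to PDGFRB from 3.06 upward against at most 2.54. The share of all gene pairs with a ratio so separated was not taken.

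Other genes of these cell states, listed beside the members, moved in both directions between the depots. Of 11 early progenitor genes tested, TPPP3, which promotes tubulin assembly, was the only one called (23.7 to 34.6 TPM in the GOM, 9.95 to 14.0 TPM in the ULB, log2 fold change 1.18, SE 0.28, edgeR adjusted p = 0.0484), and the list's median was -0.18. None of 8 committed preadipocyte genes was called (median -0.10), and PPARG, the master regulator of adipocyte formation, was at 113 to 196 TPM in the GOM and 126.3 to 216 TPM in the ULB. Of 5 genes of stromal cells that regulate adipogenesis, CLEC11A, a secreted growth factor, rose 1.95 and MGP, an inhibitor of calcification, rose 1.97 on the log2 scale (edgeR adjusted p = 0.0266 and 0.0411). MGP ranged from 845 to 2885 TPM in the GOM and 214 to 807 TPM in the ULB, and CLEC11A from 5.13 to 14.0 and 1.79 to 3.12 TPM. In the same list FMO2, a flavin-containing monooxygenase, fell by 2.41 (edgeR adjusted p = 0.00701), from 58.5 to 107 TPM in the ULB to 10.6 to 33.2 TPM in the GOM, and the list's median was 0.64.

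Among 10 general fibroblast genes tested 1 was called. PRRX1, a homeobox factor of limb and body wall mesenchyme, ranged from 4.36 to 8.42 TPM in the GOM and 37.5 to 73.3 TPM in the ULB (log2 fold change -3.22, SE 0.33, edgeR adjusted p = 0.00102). Of 9 small leucine-rich proteoglycans, the family of DCN, ASPN (asporin) was called, with 38.7 to 74.2 TPM in the GOM and 105 to 290 TPM in the ULB (log2 fold change -2.02, SE 0.31, edgeR adjusted p = 0.00709). The medians of these lists were 0.17 and -0.26. None of the 4 tested relatives and neighbours of DLK1 was called, with a median of 0.17. PRRX1, ASPN and FMO2 were thus lower in the depot where PI16 was higher.

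The comparison of breeds asks how the levels of these markers in whole tissue differ between a lean and a fat type of pig. None of 7 members was called by edgeR over 7 libraries with depot as a covariate, where 0.342% of all genes were called, 2 members had an unadjusted p below 0.05 (21.3% of all genes had), and DESeq2 called 1 member and 7.1% of all genes. These members were DCN (log2 fold change 0.91, SE 0.33, edgeR adjusted p = 0.173, DESeq2 adjusted p = 0.036) and PI16 (1.22, SE 0.44, edgeR adjusted p = 0.167). The DCN means were 2883 ± 826 TPM (SD, n = 4) in wild boar and 1789 ± 515 TPM (SD, n = 3) in Bama pig, and 3 of 4 wild boar libraries lay above all 3 Bama pig libraries, with wild boar GOM replicate 1 below Bama pig GOM replicate 1. PI16 lay at 81.6 ± 72.9 TPM (SD, n = 4) in wild boar and 46.1 ± 35.4 TPM (SD, n = 3) in Bama pig, and 2 of 4 wild boar libraries, both of GOM, lay above every Bama pig library. Without wild boar GOM replicate 2 the log2 breed estimate of PI16 was 0.77 (edgeR adjusted p = 0.389).

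The other members gave estimates between -0.42 for DPP4 and 0.56 for PDGFRA on the log2 scale, with edgeR adjusted p-values from 0.271 to 0.789. TPM and the counts scaled by TMM did not always give the same sign between breeds. For PDGFRA the mean was 98.8 TPM in wild boar and 101 TPM in Bama pig, a ratio of 0.977, against a fitted log2 fold change above 0. This ratio pools the depots unequally, whereas the fit holds depot constant. By depot the PDGFRA ratio in TPM was 0.913 in the GOM and 1.83 in the ULB, where Bama pig has 1 library. No direction is given for PDGFRA. Within the GOM alone the signs differed for PDGFRA (0.913 in TPM, 0.42 fitted), DPP4 (0.809 and 0.26) and ICAM1 (0.714 and 0.11). The TMM factors were 0.853 to 1.01 in wild boar and 1.09 to 1.11 in Bama pig. No member had wild boar and Bama pig libraries that did not overlap in TPM as given by the authors, against 13.3% of all genes tested. With TPM rescaled to a common sum over the genes in the expression tables, DCN alone did not overlap. It then ranged from 2613 to 4391 in wild boar and 1415 to 2446 in Bama pig, and the share of all genes was not taken on that scale. From the listed genes, MFAP5, a microfibril glycoprotein of early progenitors, was higher in wild boar, with 371 to 799 TPM against 70.2 to 153 TPM (log2 fold change 2.65, SE 0.33, edgeR adjusted p = 0.0185). It was the only gene of the lists of progenitor, fibroblast and ligand genes called between breeds.

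**Figure D3:**
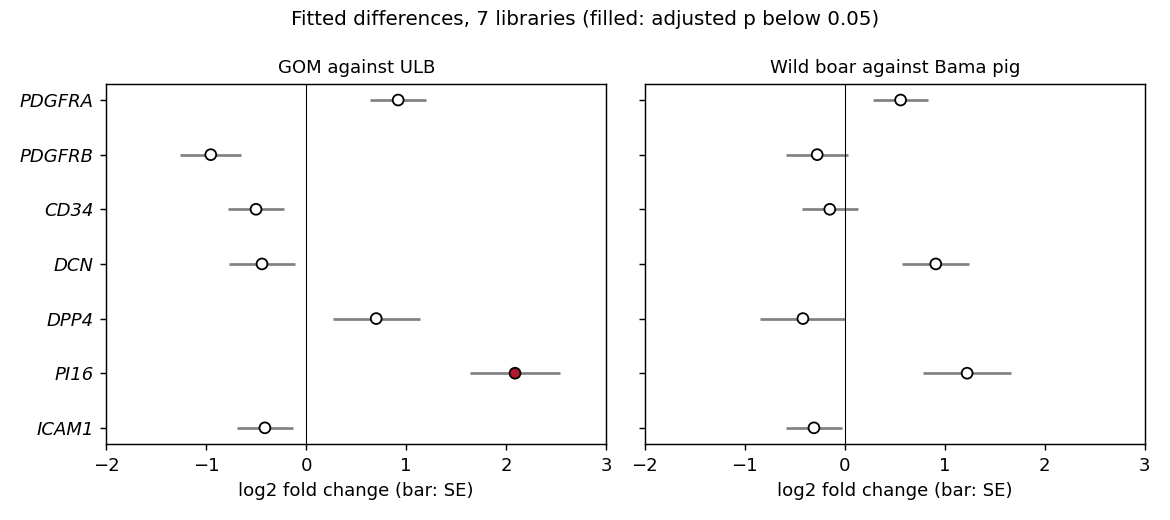
Log2 fold changes fitted by edgeR over 7 libraries for the 7 members tested, GOM against ULB on the left and wild boar against Bama pig on the right, with bars for the SE. PI16 at 2.09 between depots is the only filled point (adjusted p below 0.05), and PDGFRA and PDGFRB lie on opposite sides of 0.

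Within the GOM, where each breed has 2 libraries, edgeR called none of 7 members and 0.0241% of 16615 genes. PI16 had the largest estimate, with 97.5 and 178 TPM in wild boar and 85.9 and 34.1 TPM in Bama pig. These libraries did not overlap, but wild boar replicate 1 and Bama pig replicate 1 lay near each other. The share of all genes without overlap between breeds within the GOM was not taken. The log2 fold change was 1.86 (SE 0.57, unadjusted p = 0.012, adjusted p = 0.586 by edgeR), and PI16 was the only member with an unadjusted p below 0.05. Among all 16615 genes, 1329 were below that level by edgeR. DESeq2 gave PI16 an adjusted p of 0.0724 and called no member. In the ULB, without a test, PI16 was 1.38-fold and DCN 2.10-fold higher in the mean of the wild boar libraries than in the Bama pig library, and the ratio of DPP4 was 0.410.

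The depot difference was also compared between breeds as an interaction. No gene of 16949 passed with edgeR (0% called, 841 with an unadjusted p below 0.05), and DESeq2 called 49 genes, none of them a member. DPP4 was the member with the smallest unadjusted p, 0.049, at a log2 interaction of 1.67 (SE 0.73, edgeR adjusted p = 0.957). Its mean was 2.34-fold higher in the GOM than the ULB of wild boar and 1.19-fold in Bama pig. PI16 had a mean 5.46-fold higher in the GOM of wild boar and 3.28-fold higher in that of Bama pig, and PDGFRA 1.504-fold and 3.01-fold. For none of these was a difference between breeds shown.

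Chromatin state at the members was read as PC1, the first principal component of the Hi-C contact matrix per 20 kb bin, in which values above 0 mark the open A compartment and values below 0 the closed B compartment. The bin of the start site had a positive PC1 in every library for 9 of 10 members, and for DPP4 in 6 of 7. Of all autosomal bins 48.7% to 50.8% were positive per library, and the share over the starts of all genes was not taken. PDGFRB on chromosome 2 (151155753 to 151192818) had the highest PC1, 61.6 to 90.4, at the 99.4th percentile of its chromosome by its mean. ICAM1 (95.0th percentile), CD34 (96.8th), THY1 (94.6th) and PI16 (94.5th) also lay in strongly A-type bins. DLK1, with a single count in 7 libraries, lay in an A-type bin too, with PC1 from 5.95 to 22.8. DPP4 on chromosome 15 (68661764 to 68742961) lay near 0, from -3.79 in Bama pig GOM replicate 1 to 10.2 in wild boar ULB replicate 1. In neither depot did the start bin of a member have PC1 of opposite sign in all wild boar and all Bama pig libraries. Averaged over the gene body, however, PC1 at DPP4 was 3.99 and 4.60 in GOM and 5.60 and 3.36 in ULB of wild boar, and -1.74 and -3.37 in GOM and -0.19 in ULB of Bama pig. All 4 wild boar values were thus above 0 and all 3 Bama pig values below, each near 0, and the difference of 5.98 (SE 1.77, limma over gene bodies, adjusted p = 0.230) was not called. Such opposite signs were found at 1 of 10 members and 0.203% of 18691 genes.

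CD55 was the only member whose PC1 at the start bin was called between depots. The bin of its start, on chromosome 9 (gene at 67933069 to 67960380), had a PC1 of 26.1 and 28.3 in GOM of wild boar and 28.0 and 22.2 in that of Bama pig. In the ULB it was 4.43 and 6.74 in wild boar and 7.32 in Bama pig. All 4 GOM libraries lay far above all 3 ULB libraries, and all were on the A side in this bin. Over the gene body PC1 was 14.5 to 21.7 in the GOM and -2.02 to 5.51 in the ULB, with wild boar ULB replicate 2 below 0. The mean was 26.1 ± 2.81 (SD, n = 4) against 6.16 ± 1.53 (SD, n = 3), a fitted difference of 20.1 (SE 2.69, limma with breed as a covariate, adjusted p = 0.0196), and 1 of 10 members was called where 2.3% of 113298 bins were. The adjusted p by limma was 0.0931 without wild boar ULB replicate 1, 0.0516 without wild boar ULB replicate 2, 0.0514 without Bama pig GOM replicate 1 and 0.116 without the Bama pig ULB library. The difference itself stayed between 19.1 and 21.6.

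The higher PC1 of the GOM at CD55 belonged to a longer stretch. In 31 bins in a row, 620 kb from 540 kb upstream of the CD55 bin to 60 kb downstream, every GOM library lay above every ULB library. Taken singly, 9.17% of all autosomal bins had this order. How often such bins form a run of this length was not counted. The TAD lists, called by the authors on merged replicates, placed the CD55 start in a TAD from 67680001 to 67960000 of chromosome 9 in the GOM of both breeds and in no TAD in the ULB of either breed. That pattern was found at the starts of 1.84% of 18691 genes, and no test was made of it. Expression of CD55 could not be set beside these values.

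**Figure D4:**
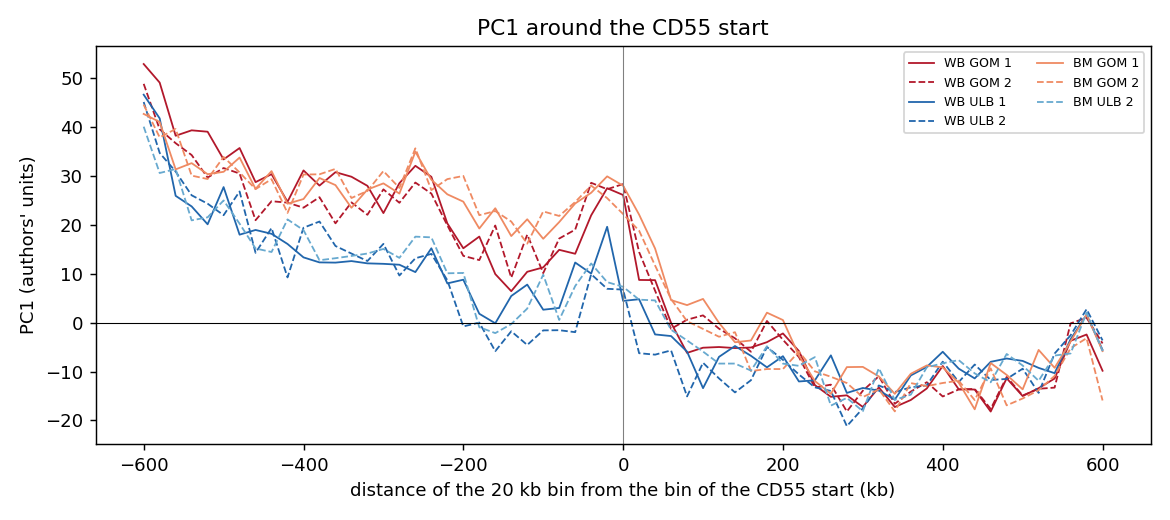
PC1 in 20 kb bins from 600 kb upstream to 600 kb downstream of the bin that holds the CD55 start, with 1 line per library (red and orange GOM, blue ULB, solid replicate 1, dashed replicate 2). The 4 GOM lines run above the 3 ULB lines from 540 kb upstream to 60 kb downstream and meet them further downstream.

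PDGFRA had the next clearest separation in PC1, with 28.9 and 32.2 in GOM of wild boar, 29.4 and 35.3 in that of Bama pig, 27.7 and 23.8 in wild boar ULB and 14.9 in Bama pig ULB. The depots did not overlap at 2 of 10 members, CD55 and PDGFRA, and at 18.8% of all bins, and for PDGFRA the difference of 9.88 (SE 3.40, limma adjusted p = 0.148) was not called. PC1 at PI16 stayed between 39.4 and 43.6 in all 7 libraries (difference 1.09, SE 2.48, limma adjusted p = 0.839), while its transcript level ranged from 18.3 to 178 TPM. PC1 at PDGFRB, which had lower estimates of transcript in the GOM, differed by -7.05 (SE 4.92, limma adjusted p = 0.442). Between breeds at the start bin, limma called none of 10 members and 0.00971% of bins. No member had an unadjusted p below 0.05 there, against 12.1% of all bins. Over the gene body DPP4 and PDGFRA were below that level, as were 2615 of 18691 genes. Neither was called (limma adjusted p = 0.230 and 0.292). No member had wild boar and Bama pig libraries that did not overlap in PC1 at the start bin, against 8.89% of bins, while over the gene body DPP4 alone did not overlap, against 10.2% of genes. The largest breed difference among members was 8.05 at CD34 (SE 5.72, limma adjusted p = 0.612), where wild boar GOM replicate 1 reached 70.6 and the other 6 libraries lay between 41.0 and 48.5.

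The remaining members overlapped between depots in PC1. THY1, whose transcript could not be followed, varied least after PI16, from 41.5 to 47.7. PC1 at ICAM1 was 59.0 to 70.2 in the GOM and 63.2 to 64.3 in the ULB (difference 3.35, SE 2.87, limma adjusted p = 0.537). At DCN, the most abundant transcript among members, PC1 was only 9.01 to 18.7, at the 67.04th percentile of chromosome 5, so that level and PC1 did not rank the members alike.

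**Figure D5:**
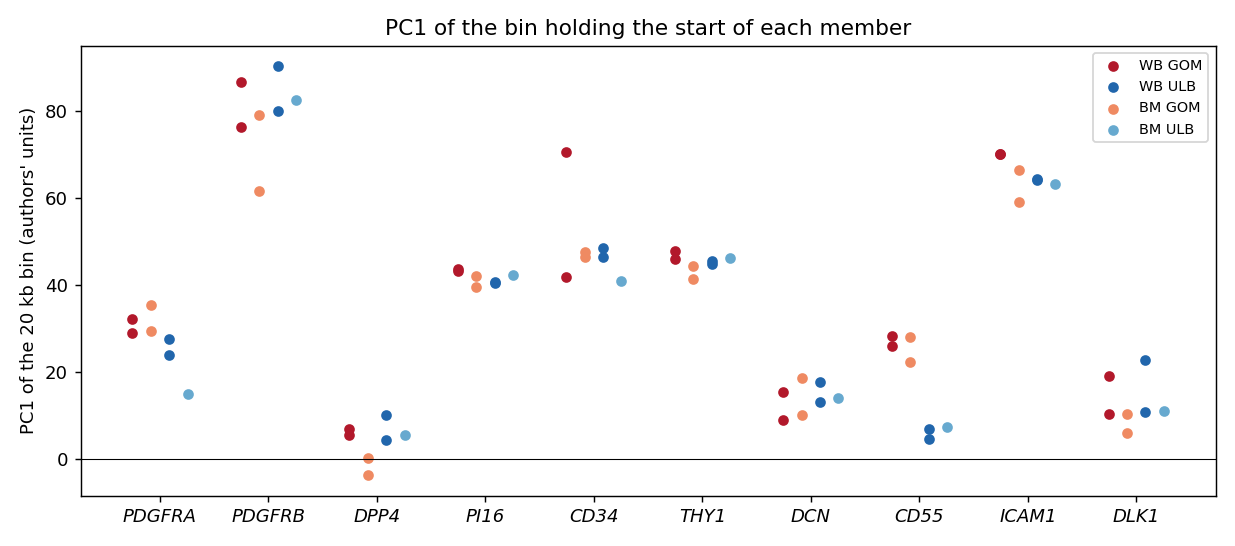
PC1 of the 20 kb bin holding the start of each of the 10 members, with 1 point per library in the colour of its breed and depot. At CD55 the GOM points (22.2 to 28.3) are separate from the ULB points (4.43 to 7.32), and among these start bins only that of DPP4 has a point below 0.

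The TADs around 5 of the 10 starts (PDGFRA, DPP4, CD34, DCN and DLK1) had both edges within 40 kb of each other in all 4 lists. The share of all genes with edges so shared was not taken. The start of DCN lay in the same TAD from 91540001 to 91880000 of chromosome 5 in each list. The start of PI16 lay in a TAD of 100 kb in the GOM of both breeds and of 160 kb in wild boar ULB and 200 kb in Bama pig ULB. Its downstream edge was shared and 39.0 kb away. How many genes have a TAD edge that differs between depots in this way was not counted. The TAD of ICAM1 was 660 kb in 3 lists and 880 kb in Bama pig ULB. PDGFRB lay in TADs of 320 kb in both wild boar lists, 700 kb in Bama pig ULB and 1236 kb in Bama pig GOM. The start of THY1 lay in no TAD in any list, as for 8.95% of genes.

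The genes whose levels followed each member most closely over the 7 libraries were found by the root mean square difference of log2(TPM + 0.1) after centring, among 9269 genes with a mean of at least 5 TPM. For PI16 they were HSP70.2 (0.40), LSAMP (0.50) and DPT (0.50), the last the matrix protein dermatopontin. For PDGFRA they were TMEM107 (0.10), CARD19 (0.14) and TSPAN9 (0.14), and for PDGFRB CBFA2T2 (0.17), SPATA7 (0.21) and JCAD (0.21). For DPP4 they were EEIG1 (0.20), SMPD1 (0.21) and LRCH4 (0.22), and for CD34 C14orf28 (0.11), MEF2A (0.13) and CCDC15 (0.14). For DCN they were TMEM237 (0.15), CCDC122 (0.21) and PLIN2 (0.22), and for ICAM1 BACE1 (0.11), CRAT (0.11) and RAD54L2 (0.13). PI16 was the least closely matched, and no member was among the 3 nearest genes of another. The measure was not scaled by the spread of a gene, so genes that vary widely, such as PI16, tend to lie further from others. The closest pair of members was PDGFRB and CD34 at 0.29, and the nearest member to PI16 was PDGFRA at 0.97. With 7 libraries and 9269 genes such matches are a description only.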

How the data were processed

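RNA-seq and Hi-C values of wild boar and Bama pig GOM and ULB were used, with 7 libraries of each assay. Abundance of protein-coding transcripts was estimated by the authors with kallisto (version 0.43.0 in the submitters' processing notes) on Sscrofa11.1 and Ensembl release 102. The authors deposited an estimated count (an expected count) per gene and library, without normalization. The authors also deposited TPM values, which over the listed genes sum to 774260 to 956616. From Hi-C, the authors deposited a score per 20 kb bin and library from KR and quantile normalized matrices. It is named an A-B index, but its mean is 0 on each chromosome, so it was read as PC1. TAD lists were called on merged replicates.

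Genes were placed by symbol in RefSeq's Sscrofa11.1, and its 18 autosomes were as long as those behind the Hi-C values. Estimated counts were rounded and tested with edgeR 4.0.16 in R 4.3.3 (quasi-likelihood F test, TMM, Benjamini-Hochberg adjustment over all genes tested, adjusted p below 0.05, two-sided), keeping genes over 0.1 TPM in each of 2 replicates of a group. PC1 was tested with limma 3.58.1 over all bins. Differences between members used a pseudocount of 0.1 TPM. Alternatives were DESeq2 1.42.0, upper-quartile normalization, no filter, a replicate block, leaving out each library, PC1 centred on the chromosome median or averaged over the gene body, a pseudocount of 1, and TPM rescaled over the listed genes. The tests were checked on simulated data. Depths of 10833153 to 18627076 counts limit low genes. Floors cover counting error only, and PC1 has no stated depth.

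Up to 4 genes of each list with the smallest unadjusted p between depots, then between breeds, could be named, and every member was named. The members and lists were chosen with earlier results of these data known. Libraries of a group came from different pigs. Other values came from Python 3.11.15, numpy 2.4.6, pandas 2.3.3 and matplotlib 3.10.9.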

Additional observations from a re-analysis of the deposited data

Results flagged for a closer look

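The transcript level of PDGFRA in the 4 wild boar libraries had 1 library far from the others. GOM replicate 1 was at 148 TPM, the other 3 were at 77.2 to 89.3 TPM, and its gap to the nearest was 0.8294 of the whole range, just above the limit of Dixon's test for 4 values. These 4 libraries join both depots of wild boar. With TPM rescaled to a common sum, GOM replicate 1 was at 191 and the others were at 83.7 to 107. Dixon's test was not repeated on that scale. Of 34 such groups of 4 libraries, 1 was flagged, and chance flags about 1 in 20 groups.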

How the results depend on the processing

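The depot call of PI16 held under DESeq2, upper-quartile normalization, no filter on low values, a replicate block and the wild boar libraries alone. The single Bama pig ULB library and the 2 libraries of each other group limit all calls, and in each case below the cause was not tested. Between depots, 1471 genes were called with DESeq2, 1008 without a filter, 318 in wild boar alone and 230 to 673 when each library was left out, against 618. Among the libraries left out, the lowest counts came without wild boar GOM replicate 1 (345), wild boar ULB replicate 1 (254) or 2 (329) or the Bama pig ULB library (230). DESeq2 called 3 members, and 0 to 1 were called when a library was left out. Between breeds, 1203 genes were called with DESeq2, 504 without a filter and 1 to 2005 when a library was left out (1 without the Bama pig ULB library, 15 and 27 without wild boar ULB replicate 1 and 2, 105 and 19 without wild boar GOM replicate 1 and 2, 2005 without Bama pig GOM replicate 2), against 58, and DESeq2 called 1 member. Upper-quartile normalization moved the median log2 fold change of all genes between breeds from -0.01 to -0.14. Within the GOM, 167 genes were called with DESeq2, 26 without a filter, 15 with a replicate block and 0 to 115 when a library was left out, against 4 (115 and 70 without wild boar replicate 1 and 2, 0 without either Bama pig replicate). For the interaction, 49 were called with DESeq2, 7 without a filter and 0 to 1 when a library was left out (1 without Bama pig GOM replicate 2), against 0, and it could not be fitted without the Bama pig ULB library. Of PC1 bins, 0 to 700 were called between depots when a library was left out, against 2609, with 0 to 1 members (0 bins without wild boar ULB replicate 1 or the Bama pig ULB library), and 6 to 1523 between breeds, against 11, or 22 with centring (1523 without the Bama pig ULB library). Averaging PC1 over gene bodies gave 278 of 18691 genes between depots, CD55 among them.

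The sources do not say that libraries of the same number come from the same pig. In wild boar the deviations of same-numbered GOM and ULB libraries correlated at 0.16, as did those of different animals of both breeds in the GOM (0.16). With a replicate block, PI16 stayed called between depots, and 0 bins and 0 members were called for PC1 between depots, where CD55 had an adjusted p of 0.0946 at a difference of 19.4 by limma.

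Signs turned only for estimates that were not called. When each library was left out, the log2 breed difference ranged from -0.30 to 0.037 for CD34, -0.76 to 0.26 for DPP4 and -0.55 to 0.11 for ICAM1. Within the GOM it ranged from -0.54 to 0.11 for CD34, -0.15 to 0.56 for DPP4, -0.15 to 0.43 for ICAM1 (-0.019 with upper-quartile normalization) and -0.49 to 0.29 for PDGFRB. The interaction ranged from -0.47 to 0.26 for CD34 and -0.37 to 0.34 for DCN, at 0.22 and 0.088 with a replicate block. PC1 between depots ranged from -3.46 to 0.18 at DCN (0.67 over the gene body), -5.43 to 0.60 at DLK1 and -1.28 to 1.69 at THY1 (0.66 with centring), and was -0.92 at PI16 with centring. Between breeds it ranged from -1.25 to 2.12 at CD55 (-1.03 with centring, -4.66 over the gene body), -2.51 to 1.81 at DCN (1.76 over the gene body), -1.78 to 6.003 at PDGFRA and -0.18 to 2.70 at PI16. The contrast of early against committed markers between depots was 1.48, and 1.43 with a pseudocount of 1.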
